A study of Mus musculus with 5 samples.

Results

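Selplg, Cd44 and 5 glycosyltransferase genes (Fut4, Fut7, Gcnt1, St3gal4 and St3gal6) were compared between normal myeloid cells and cells of an acute myeloid leukaemia (AML). These 7 genes were chosen by symbol, as the carriers of selectin ligands and the enzymes that build them, out of 34240 features in the deposited table. All cells came from BALB/c mice of 10 to 12 months. The normal group held 3 libraries of Gr1+Mac1+ cells sorted from bone marrow. The AML group held 2 libraries of Mac+Gr1+B220+ cells, with bone marrow and spleen given as tissue, from a leukaemia induced by CNTRL-FGFR1, a fusion of centriolin with the receptor tyrosine kinase FGFR1. Spleen and the B220 gate were part of the AML group alone, so tissue, sort and leukaemia cannot be told apart. Separate animals are not stated for the libraries. The p-values therefore reflect the spread among these samples alone, and that spread may be technical.

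Selectins are lectins that let leukocytes tether to and roll on vessel walls. They bind the sialyl Lewis x tetrasaccharide at the ends of glycans on carrier proteins, above all on PSGL-1, the product of Selplg, and also on glycoforms of the hyaluronan receptor CD44. On PSGL-1 the branching enzyme core 2 N-acetylglucosaminyltransferase (Gcnt1) adds the arm that is extended, the α2,3-sialyltransferases ST3Gal-IV and ST3Gal-VI cap it with sialic acid, and the α1,3-fucosyltransferases FucT-VII and FucT-IV add fucose. In neutrophils and monocytes this machinery serves entry into inflamed tissue and, in progenitors, homing to bone marrow.

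Of the 7 genes 5 were lower in AML cells (Selplg, Cd44, Gcnt1, Fut7 and St3gal6) and 0 were higher, at an adjusted p under 0.05 (limma, Benjamini-Hochberg over 10166 tested genes). At an unadjusted p under 0.05 the counts were 6 lower and 0 higher. Of all tested genes 11.8% were called lower and 19.3% higher, 31.0% in either direction. Every AML library lay below every normal library for 6 of the 7, against 22.1% of tested genes (34.8% the other way round). The median log2 fold change of the 7 was -1.25, beside 0.12 over all tested genes. St3gal6 fell most, 7.30-fold. Values are RPKM, read numbers divided by exon length and by library depth, and log2 fold changes are AML minus normal on the log2(RPKM + 1) scale, which understates changes of low genes. In such bulk samples, fewer cells of a type and less RNA per cell cannot be told apart. The number of decimals in a deposited row went with direction among the further genes below, as described with the processing.

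**Figure D1:**
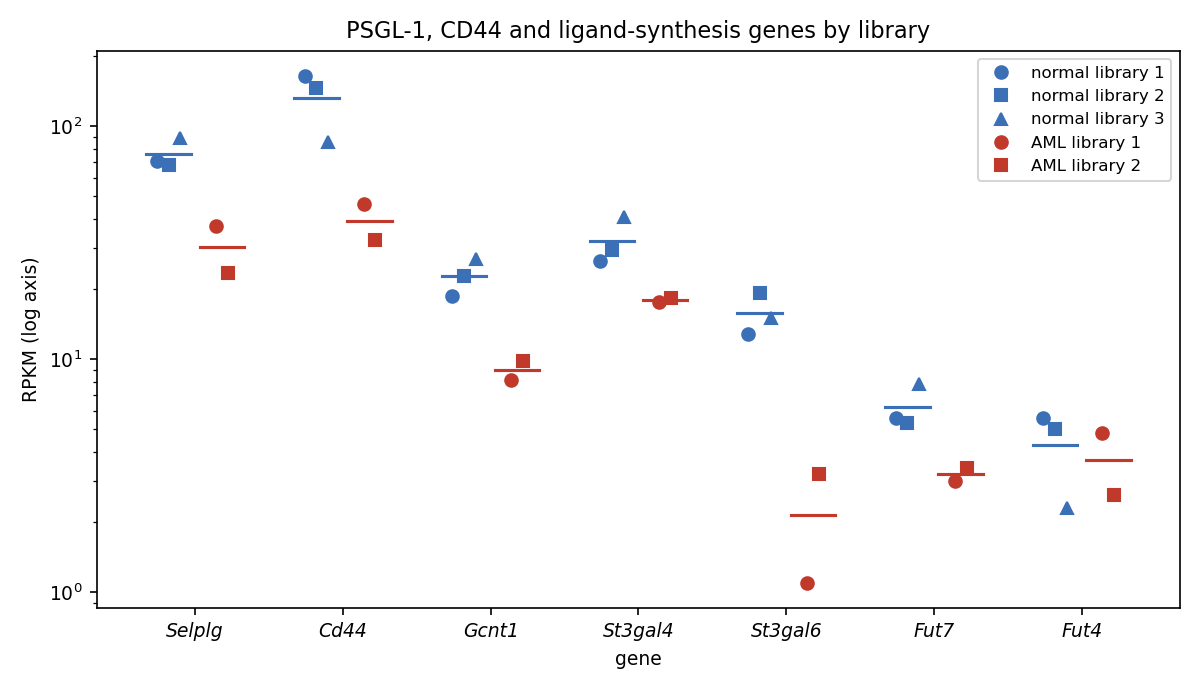
RPKM on a log axis for the 7 genes, 1 point per library (blue, 3 normal; red, 2 AML) with a line at each group mean. The groups are separate for every gene shown except Fut4, where both AML libraries lie inside the normal range.

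Some features of the libraries touch these values. Totals ran from 472234 to 638584 RPKM. Depths of 33250000 to 77000000 reads best matched the spacing of low values in genes with a single exon. For AML library 2 a depth well under the best one, 52000000 reads, matched about as well. Normal library 3 stood apart from the other 2 of its group (Pearson r of 0.924 and 0.944 across genes, beside 0.988 between those). The summed neutrophil markers (S100a8, S100a9, Itgam, Ly6g, Csf3r, Mpo, Elane) reached at least 117459 RPKM in every library, nearly all of it S100a8 and S100a9, which were not called. Itgam, Ly6g and Csf3r, genes of maturing neutrophils, were 2.33-fold, 2.31-fold and 2.50-fold lower in AML cells, falls of the size of those of Selplg and Gcnt1. Mpo and Elane, granule genes of early neutrophil precursors, were 17.8-fold and 62.2-fold higher. Of 7 monocyte and macrophage markers 6 were lower in AML cells, none was at 0, and their sum was 267.8 to 356.4 RPKM in normal and 21.8 to 27.6 RPKM in AML libraries. The sums over 5 erythroid markers (100.1 to 1499.7 RPKM in normal, 114.2 to 124.7 in AML) and 4 eosinophil markers (4.1 to 629.7 and 98.4 to 199.8) were lowest in normal library 3. The 7 T cell markers summed to 41.8 to 48.2 RPKM in normal and 338 to 339.81 RPKM in AML libraries, where Cd3e and Cd3g rose and Cd3d fell while Cd4, Cd8a, Lck and Cd2 were under 1 RPKM everywhere. The 6 B cell markers summed to 10.9 to 16.9 RPKM in normal and 10.1 to 12.2 RPKM in AML libraries, with Ms4a1 and Ebf1 under 1 RPKM everywhere. The 5 megakaryocyte markers summed to at most 14.1 RPKM. All 4 endothelial markers were under 1 RPKM in every library and at 0 in both AML libraries. The part of other cells in the results on the 7 genes was not tested.

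Both carrier proteins were less abundant as transcripts in AML cells. Selplg (ENSMUSG00000048163.8, chromosome 5, 114267807 to 114280510, mm9) stood at 70.7, 67.8 and 89.1 RPKM in normal libraries 1 to 3 and at 37.4 and 23.3 RPKM in AML libraries 1 and 2. The groups did not overlap, and the lowest normal library was well above the higher AML library. The group means were 75.9 ± 11.5 (SD, n = 3) and 30.4 ± 9.93 RPKM (SD, n = 2), a 2.50-fold fall with a log2 fold change of -1.32 (SE 0.28, limma adjusted p = 0.015). Cd44 (ENSMUSG00000005087.10, chromosome 2, 102651298 to 102741822) was listed at 163.7, 145.8 and 85.0 RPKM in normal and 46.1 and 32.3 RPKM in AML libraries. Again no AML library reached the normal range, whose lowest value was that of normal library 3. Cd44 fell 3.35-fold (131.5 ± 41.3 against 39.2 ± 9.76 RPKM, SD), with a log2 fold change of -1.69 (SE 0.35, limma adjusted p = 0.013). The value per gene does not separate CD44 splice forms, and which of them it covers is not stated. Without AML library 2 the adjusted p was 0.12 for Selplg and 0.11 for Cd44, and without normal library 2 it was 0.053 for Cd44 (limma).

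Gcnt1, whose enzyme starts the core 2 branch, fell in AML cells. It lies on chromosome 19 (ENSMUSG00000038843.9, 17400631 to 17431157). Normal libraries held 18.6, 22.8 and 27.0 RPKM and AML libraries 8.1 and 9.8 RPKM, so that the highest AML value was about as far below the lowest normal value as the normal values spread. The difference was 2.55-fold (log2 fold change -1.25, SE 0.25, limma adjusted p = 0.010). It missed the threshold without AML library 1 (adjusted p = 0.072) or AML library 2 (0.066).

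The sialyltransferase genes St3gal4 and St3gal6, whose enzymes cap the same kind of chain end, differed in the size of their change. St3gal6 (ENSMUSG00000022747.10, chromosome 16, 58468238 to 58524356) was at 12.8, 19.3 and 15 RPKM in normal libraries. It was at 1.1 and 3.2 RPKM in AML libraries, about 239 and 1012 reads at the best trial depths and annotated exon length, the second an upper value because a lower depth matched AML library 2 about as well. Its log2 fold change was -2.47 (SE 0.35, limma adjusted p = 0.0033), and it passed in all 5 fits without one library (adjusted p up to 0.028). St3gal4 (ENSMUSG00000032038.6, chromosome 9, 34854164 to 34924395) stood at 26.3, 29.4 and 40.5 RPKM in normal and 17.6 and 18.2 RPKM in AML libraries. These groups did not overlap either, but the log2 fold change of -0.78 (SE 0.26) missed the threshold (limma adjusted p = 0.056). It passed under upper quartile scaling (0.041), quantile normalization (0.038), equal totals (0.039) and removal of the transcript length trend (0.012). It missed with no filter (0.092), a 5 RPKM filter (0.056), a pseudocount of 0.1 (0.055), no variance trend (0.053) and rounding (0.057). It also missed without normal library 1 (0.079), 2 (0.14) or 3 (0.056, all limma adjusted p). The log2 fold change was -0.76 without AML library 1 and -0.81 without AML library 2. St3gal4 RPKM was 2.05, 1.52 and 2.70 times that of St3gal6 in normal libraries 1 to 3 and 16 and 5.69 times in AML libraries 1 and 2. The log2 ratio was thus higher in both AML libraries, by 2.23 on average (1.03 ± 0.41, SD, n = 3, against 3.25 ± 1.06, SD, n = 2). An exact two-sided permutation test gave p = 0.2. That is the smallest value this test can give with 10 splits of 3 and 2 samples, because it doubles the one-sided p.

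The 2 fucosyltransferase genes were the lowest of the 7 in normal cells, and only Fut7 passed the test. Fut7 (ENSMUSG00000036587.6, chromosome 2, 25278787 to 25281894), whose enzyme makes sialyl Lewis x and which is regarded as the main fucosyltransferase of leukocyte selectin ligands, was at 5.6, 5.3 and 7.8 RPKM in normal libraries. In AML libraries it was at 3.0 and 3.4 RPKM, below all 3 normal values. The fall was 1.95-fold with a log2 fold change of -0.77 (SE 0.24), and the adjusted p of 0.049 lay just under the threshold (limma). The call was lost without any one library other than normal library 3 (adjusted p 0.11 to 0.18), under quantile normalization (0.053), with no filter (0.076) and with a filter at 5 RPKM (0.056). Fut4 (ENSMUSG00000049307.5, chromosome 9, 14552903 to 14556566), which can also make the unsialylated Lewis x (CD15) structure, stood at 5.6, 5.0 and 2.3 RPKM in normal and 4.8 and 2.6 RPKM in AML libraries. Its groups overlapped, with normal library 3 the lowest of all 5, and no difference was called (log2 fold change -0.15, SE 0.37, limma adjusted p = 0.78). Fut7 was 1, 1.06 and 3.39 times Fut4 in the normal libraries and 0.625 and 1.31 times in the AML libraries. The log2 ratio differed by -0.76 (0.62 ± 0.99, SD, n = 3, against -0.15 ± 0.75, SD, n = 2; exact two-sided permutation test, p = 0.6), with the high normal value in library 3 alone. Without normal library 3 that difference was -0.19 and without AML library 1 it was -0.23.

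**Figure D2:**
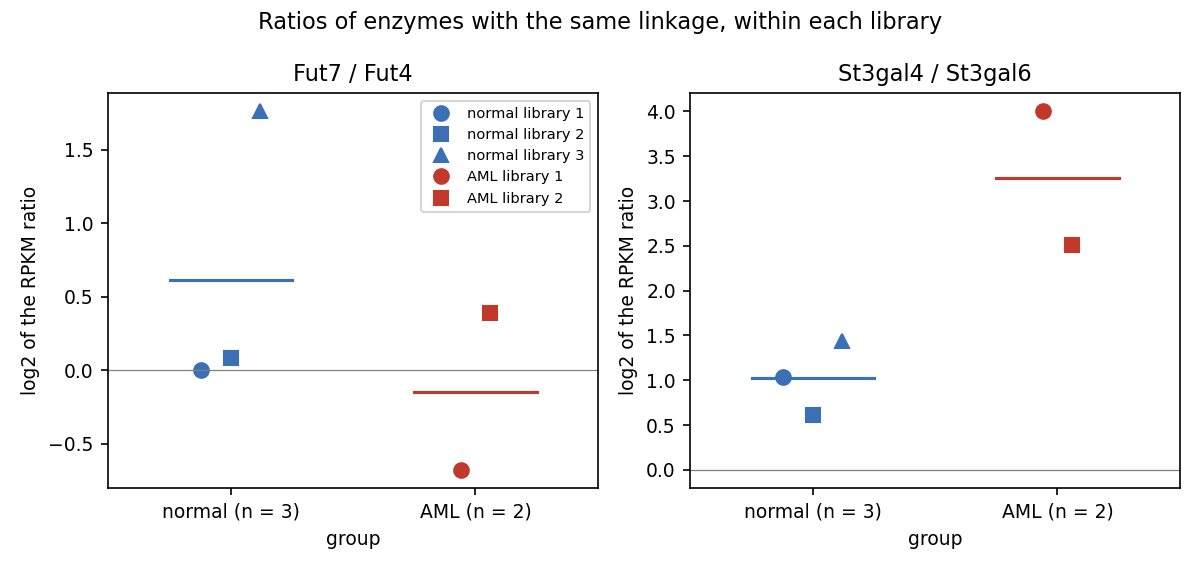
Log2 of the RPKM ratio within each library for Fut7 to Fut4 (left) and St3gal4 to St3gal6 (right), with lines at group means. The Fut7 to Fut4 ratios of the groups overlap, and the St3gal4 to St3gal6 ratios of both AML libraries (4 and 2.51) lie above all 3 normal values.

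The order of the 7 levels, which RPKM allows because it is per length, was alike at the top in both groups and differed at the bottom. In normal cells mean levels ran from Cd44 over Selplg, St3gal4, Gcnt1, St3gal6 and Fut7 down to Fut4. Only the steps from Selplg to St3gal4 and from St3gal6 to Fut7 exceeded the spread. Ranges of Cd44 and Selplg, of St3gal4 and Gcnt1, of Gcnt1 and St3gal6, and of Fut7 and Fut4 overlapped. In AML cells the first 4 kept that order, with Selplg, St3gal4 and Gcnt1 apart from one another. Fut4, Fut7 and St3gal6 followed with overlapping ranges between neighbours, so that St3gal6 stood last, at 2.15 ± 1.48 RPKM (SD, n = 2).

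**Figure D3:**
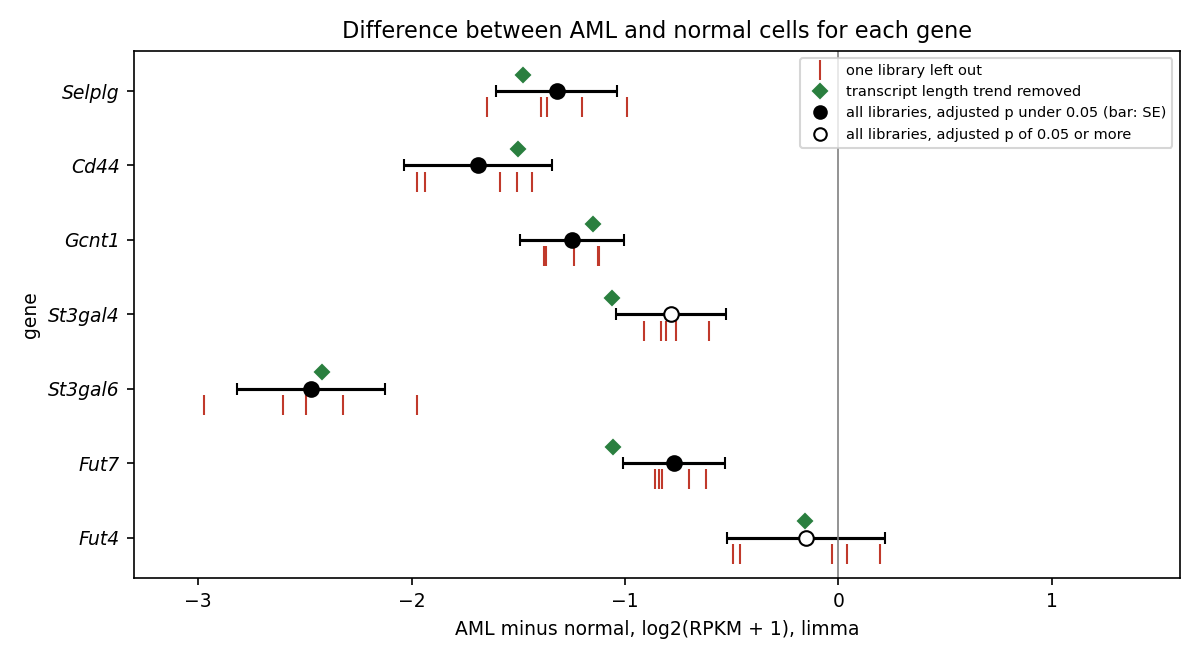
Log2 fold change (AML minus normal) of each gene with its SE, filled where the adjusted p was under 0.05, beside the 5 values without one library (red ticks) and the value with the transcript length trend removed (green). St3gal6 lies farthest from 0 at -2.47, and only the ticks of Fut4 cross 0.

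Transcript length moved with the difference between groups. Over 9794 tested genes with a known coding transcript, split into 5 equal classes by length, the median log2 fold change was 0.50 in the shortest class (291 to 1640 bases) and -0.22 in the longest (4645 to 28204 bases). Within the normal group, library 3 differed from the mean of libraries 1 and 2 by medians of 0.32 and -0.45 in these classes, and AML library 2 differed from AML library 1 by 0.13 and -0.39. Cd44 had a transcript of 5614 bases, Gcnt1 of 4606, St3gal6 of 4123 and Fut4 of 3664, and Selplg, St3gal4 and Fut7 were shorter (2604, 2029 and 1990). With the trend removed, 6 of the 7 were called lower, St3gal4 included, and log2 fold changes were -1.48 for Selplg, -1.50 for Cd44, -1.15 for Gcnt1, -1.06 for St3gal4, -1.06 for Fut7, -2.42 for St3gal6 and -0.16 for Fut4. That setting moved the median of all genes from 0.12 to -0.004 and gave 1569 higher and 1693 lower genes, beside 1959 and 1196.

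**Figure D4:**
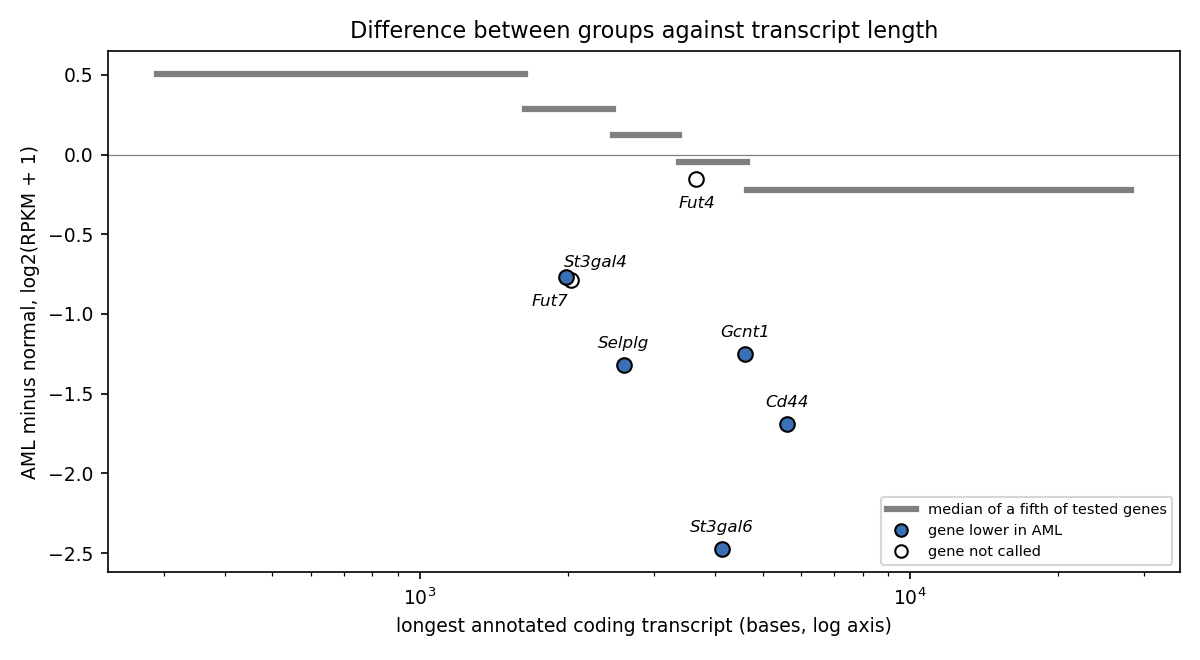
Log2 fold change (AML minus normal) against the longest annotated coding transcript on a log axis, with grey bars for the median of each of 5 equal length classes of tested genes. All called genes and uncalled St3gal4 lie more than 1 unit below the bar of their class, and uncalled Fut4 lies near it.

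The upstream sequences of Cd44, Gcnt1 and St3gal6, which fell, and of Fut4, which was not called, are given because their RNA behaved differently. Each is the 250 bases before the most upstream RefSeq start (sequences from RefSeq, GRCm38.p6), found by exact match in mm9 on the minus strand and written 5′ to 3′. Positions are chr2:102741823-102742072 for Cd44, chr19:17447335-17447584 for Gcnt1, chr16:58524367-58524616 for St3gal6 and chr9:14556567-14556816 for Fut4. Those of Cd44, St3gal6 and Fut4 lie at or near the starts of the gene models given above. The Gcnt1 window lies far upstream of its model, which begins at 17431157 on the minus strand. Capitals mark matches on either strand to the PU.1 core GAGGAA, the C/EBP motif TTGCNNAA, the MYB motif TAACNG, the Sp1 box GGGCGG or the E-box CACGTG.
Cd44: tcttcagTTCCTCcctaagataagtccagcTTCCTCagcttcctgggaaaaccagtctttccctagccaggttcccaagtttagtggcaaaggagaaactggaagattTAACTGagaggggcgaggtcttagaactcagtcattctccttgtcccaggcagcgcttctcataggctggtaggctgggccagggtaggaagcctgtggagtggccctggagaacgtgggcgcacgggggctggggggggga
Gcnt1: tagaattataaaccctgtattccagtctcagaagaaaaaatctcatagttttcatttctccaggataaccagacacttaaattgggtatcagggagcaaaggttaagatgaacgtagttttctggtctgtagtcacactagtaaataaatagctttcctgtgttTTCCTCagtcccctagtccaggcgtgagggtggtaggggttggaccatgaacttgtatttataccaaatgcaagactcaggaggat
St3gal6: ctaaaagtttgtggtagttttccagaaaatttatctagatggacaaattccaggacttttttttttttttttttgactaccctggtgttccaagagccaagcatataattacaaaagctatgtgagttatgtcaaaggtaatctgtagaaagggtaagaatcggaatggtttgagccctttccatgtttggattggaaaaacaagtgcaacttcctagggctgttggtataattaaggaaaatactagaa
Fut4: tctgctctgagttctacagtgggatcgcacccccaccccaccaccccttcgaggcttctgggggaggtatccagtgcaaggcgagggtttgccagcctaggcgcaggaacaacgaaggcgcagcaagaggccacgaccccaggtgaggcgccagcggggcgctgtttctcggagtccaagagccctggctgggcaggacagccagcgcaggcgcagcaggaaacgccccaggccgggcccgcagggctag
Cd44 held 2 PU.1 cores and 1 MYB match, and Gcnt1 held 1 PU.1 core. No match lay in the windows of St3gal6 and Fut4. The PU.1 core was held by 23.3% of 32851 such RefSeq windows, the C/EBP motif by 9.56%, the MYB motif by 19.8%, the Sp1 box by 32.7% and the E-box by 6.02%. GC content was 56.4% for Cd44, 40.4% for Gcnt1, 34.8% for St3gal6 and 67.6% for Fut4. Matches describe letters only, and the RPKM do not show which start was used (3 RefSeq starts for Gcnt1, 2 for St3gal6 and 2 for Fut7).

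Transcripts of the endothelial and platelet selectins were near the detection filter. Selp, P-selectin of platelets and endothelium, was not called (1.22 ± 0.30 against 0.595 ± 0.049 RPKM, SD; adjusted p = 0.11), and Sele, E-selectin, was under 1 RPKM in every library. Among 9 other carrier proteins of selectin ligands 4 were tested and 1 was lower, Cd34, which was listed at 0 in both AML libraries and at 0.3 to 1.4 RPKM in normal libraries (adjusted p = 0.047, 0.18 without AML library 1, 0.24 without AML library 2, 0.077 with equal totals, 0.085 with no filter and 0.062 with no variance trend, and at the threshold with rounding). The median of these 4 was -0.50, and it was 0.064 without normal library 2, where 3 were tested. Cd34 reached 1 RPKM in normal libraries 1 and 2 alone, so the higher group decided that it was tested. It dropped out of the test when normal library 1 or normal library 2 was left out. Podxl, Podxl2, Emcn, Glycam1 and Madcam1 were under 1 RPKM throughout.

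The further genes of ligand synthesis and of CD44 biology comprised 110 genes in 10 lists, of which 70 were tested, 16 were lower and 8 higher in AML cells. Over all tested genes 11.8% were lower and 19.3% higher, so that the share lower was above and the share higher below those of all genes. The lists were chosen with earlier results of these data known. With the length trend removed, the share of all genes called lower was larger (1693 of 9794). The median of the 70 was -0.22. These numbers include the selectins and carrier proteins above.

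O-glycan and N-acetyllactosamine enzymes held 8 of these 16 lower genes. Of 22 such genes 16 were tested, 8 were lower and 1 was higher (median -0.89). Without one library 4 (AML library 2) to 9 (normal library 3) were lower. Gcnt2, which branches poly-N-acetyllactosamine chains, went from 22, 21.2 and 23.2 RPKM to 1.1 and 1.0 RPKM, a 21.1-fold fall (log2 fold change -3.50, SE 0.21). B4galt6, a galactosyltransferase of glycolipid synthesis, was listed at 8.6, 7.8 and 15.9 RPKM in normal and 0.2 RPKM in both AML libraries. C1galt1c1, which encodes Cosmc, the chaperone of the core 1 synthase, fell 5.03-fold (39.7 ± 3.91 against 7.90 ± 1.41 RPKM, SD), while the synthase gene C1galt1 was not called (28.2, 24.3 and 9.3 against 10.0 and 7.6 RPKM; adjusted p = 0.13). B4galt4, another galactosyltransferase, rose 9.19-fold to 8.80 ± 0.078 RPKM (SD, n = 2). With 1 library left out, log2 fold changes ran from -3.53 to -3.46 for Gcnt2 and from -2.36 to -2.04 for C1galt1c1. They ran from -3.41 to -2.94 for B4galt6 and from 2.23 to 2.40 for B4galt4. B4galt6 reached 1 RPKM in normal libraries alone, so the higher group decided that it was tested. The other lower genes, named after their values were seen, were Galnt10, Galnt7, Galnt11 and Galnt3, whose enzymes start O-glycans, and B4galt5.

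Sialyltransferases other than the members moved both ways, and other fucosyltransferases were not called. Of 8 tested sialyltransferase genes (15 listed) 2 were lower and 1 higher, with a median of -0.24. St3gal5, which encodes the GM3 ganglioside synthase, went from 147.8, 146.0 and 95.1 RPKM to 6.7 and 9.0 RPKM, 16.5-fold lower, and St8sia4, a polysialyltransferase, was 18.1-fold lower. Both passed in every fit without one library (limma adjusted p up to 0.032). St6galnac4 was 1.9-fold higher (adjusted p = 0.041), a call lost without any one library but normal library 3 (up to 0.18) and under all 3 scalings tried (up to 0.15) and with no filter (0.062), and the median of the list turned to 0.16 without normal library 1. Of 4 tested fucosyltransferase genes (8 listed) 0 passed the limma test in either direction, also at an unadjusted p under 0.05. Fut8, which adds the core fucose of N-glycans, stood at 10.1 ± 3.79 and 14.7 ± 2.41 RPKM (SD), and the median of the 4 was 0.40. Fut9 and 3 others were under 1 RPKM in every library.

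Of 14 tested sugar donor and transporter genes 3 were higher and 0 lower (5 and 0 at an unadjusted p under 0.05, limma; median 0.18). The share called higher was near the 19.3% of all tested genes. Gne and Nanp, enzymes of sialic acid synthesis, were 2.03-fold and 2.41-fold higher, and Tsta3, which makes GDP-fucose, was 1.84-fold higher. Their adjusted p-values were 0.047, 0.019 and 0.034. With libraries scaled to equal totals 0 of the 14 were called, and with the length trend removed 1 was, while the median turned to -0.026. Leaving out any library but normal library 3 ended the calls of Gne and Tsta3 (up to 0.21), as did the absence of a filter (0.081 and 0.055), and leaving out normal library 2, AML library 1 or AML library 2 ended that of Nanp (up to 0.13). Gne was also not called under upper quartile scaling (0.058), a filter at 5 RPKM (0.056) or a pseudocount of 0.1 (0.0503). Of 6 tested sulfation genes (9 listed; median 0.37), Tpst1, one of 2 tyrosine sulfotransferase genes that act on PSGL-1, was lower, at 1.47 ± 0.51 against 0.30 RPKM in both AML libraries. The more abundant Tpst2 was not called (37.3 ± 11.5 against 48.7 ± 3.85 RPKM, SD; adjusted p = 0.31). Slc35b2, the Golgi transporter of the sulfate donor, was 1.96-fold higher. Tpst1 missed the threshold when AML library 1 or AML library 2 was left out (up to 0.16), Slc35b2 when any library but normal library 3 was (up to 0.14), and both with equal totals. Slc35b2 also missed it with no filter (limma adjusted p = 0.051). Tpst1 reached 1 RPKM in normal libraries 1 and 2 alone, and it was not tested when either of these was left out. Of 3 tested sialidase and fucosidase genes (6 listed; median 0.48) 1 was called, Neu1, the lysosomal sialidase, at 19.6, 21.7 and 32.1 against 67.5 and 92.9 RPKM (adjusted p = 0.0073, and 0.076 without AML library 2).

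Genes for cytoplasmic partners, sheddases and splicing factors of CD44 and PSGL-1 were lower where they changed. Of 7 tested (12 listed; median -0.76) 3 were lower and 0 higher (also 3 and 0 at an unadjusted p under 0.05, limma). Msn, which encodes moesin, a linker of both tails to actin, fell 2.30-fold (365.9 ± 26.4 against 159 ± 22.6 RPKM, SD; adjusted p = 0.012). Snx20, a sorting nexin that binds the PSGL-1 tail, fell 2.08-fold, and Adam17, which encodes a protease that sheds membrane proteins, 2.17-fold. Msn missed the threshold when normal library 2 or AML library 2 was left out (up to 0.095), Snx20 when any library but normal library 3 or AML library 1 was (up to 0.20), and Adam17 when any library but normal library 3 was (up to 0.14). With equal totals 1 of the 3 was called, and with no filter Snx20 was not (0.060). Of 7 tested genes for hyaluronan and other CD44 ligands (13 listed; median -0.71), Has2, a hyaluronan synthase, was 9.62-fold lower (4.2, 4.4 and 1.5 against 0.3 and 0.4 RPKM), and Hyal2, a hyaluronidase, 2.57-fold higher (0.54 ± 0.085 against 1.39 ± 0.085 RPKM, SD). Has2 was not called when AML library 1 or AML library 2 was left out (up to 0.10). Hyal2 was not called when normal library 1 or normal library 2 was left out (limma adjusted p up to 0.096) or with equal totals (0.084). It was also not called with no variance trend (0.051) or with the length trend removed (0.19). Has2 reached 1 RPKM in the normal libraries alone and Hyal2 in the AML libraries alone. For each, the higher group thus decided that it was tested. When AML library 1 or AML library 2 was left out, Hyal2 was not tested.

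**Figure D5:**
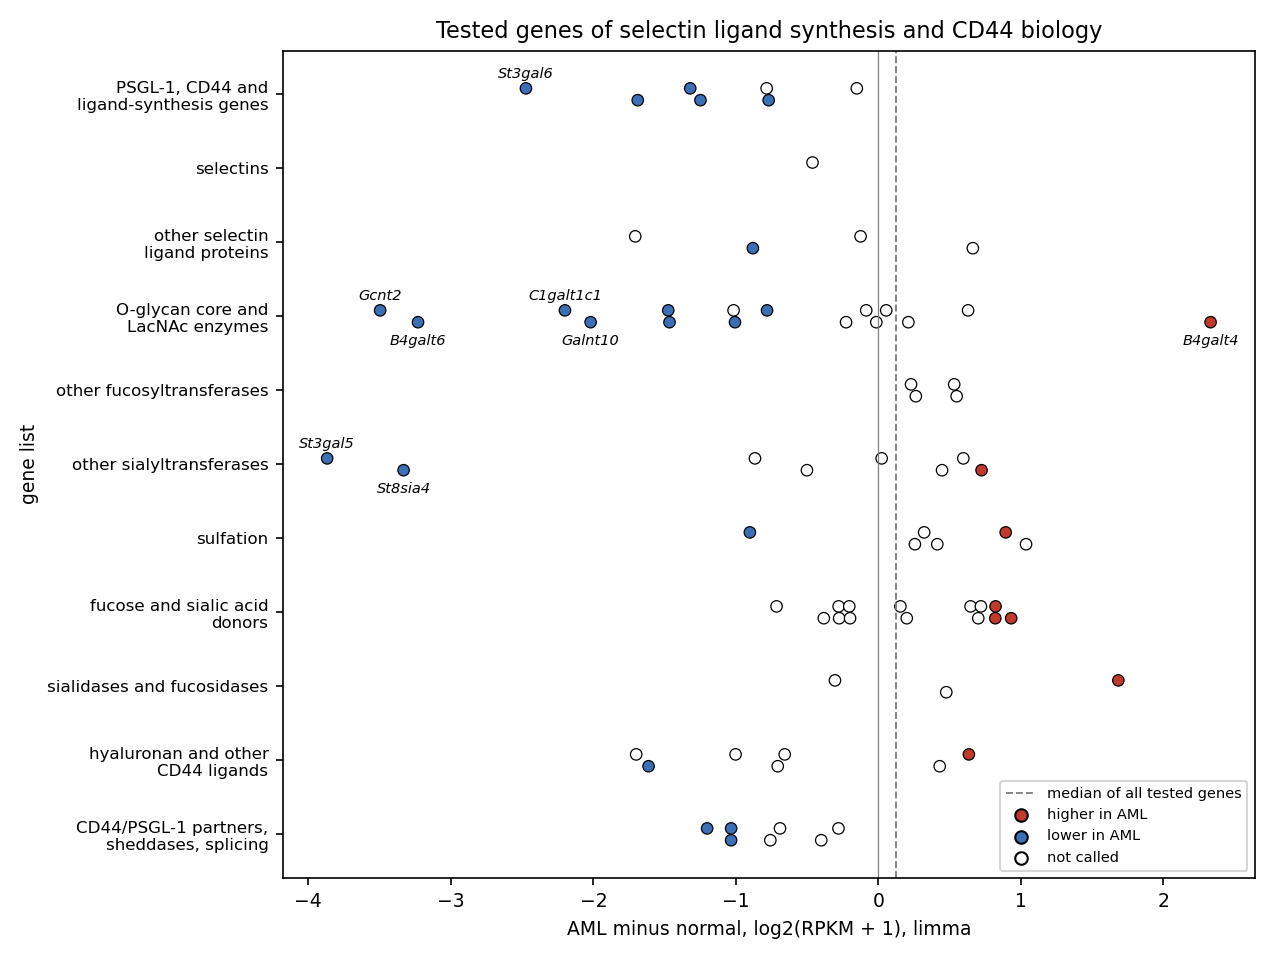
Log2 fold change (AML minus normal) of each tested gene by list, coloured where the adjusted p was under 0.05, with a dashed line at the median of all tested genes (0.12). Genes beyond 1.9 units are named: the lower ones run from St3gal5 (-3.87) to Galnt10 (-2.02), and B4galt4 (2.33) is the one higher gene at that size.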

How the data were processed

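RNA of sorted cells was sequenced after TruSeq RNA library preparation, per the labels' protocols. Per the submitters' processing notes the build was mm9, and no source used here names the aligner, counter or annotation. The authors deposited no named unit. RPKM was inferred for the deposited table, since values times kilobases of exon summed to 1.05e+06 to 1.12e+06 per library. Of low values in single-exon genes, 49.1% to 71.8% were whole reads within rounding at the best trial depth (22.3% to 34.0% by chance). Of the 7 genes 6 had 1 decimal and Selplg had 2. In the lists of further genes every gene called higher had 2 decimals. Of those called lower, Snx20 had 2 and the others 1. The format of a row thus went with the direction of its difference, and no source used here says why. Whether this bears on the calls of the 7 genes was not tested.

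limma 3.58.1 (R 4.3.3) was fitted to log2(RPKM + 1) of the 10166 genes reaching 1 RPKM in 2 or more libraries. Among called genes of the lists of further genes, Cd34, Tpst1, B4galt6 and Has2 reached 1 RPKM in normal libraries alone, and Hyal2 in AML libraries alone. Among called cell type markers, Irf8 of the monocyte list reached 1 RPKM in normal libraries alone. Cd3e and the megakaryocyte marker Gp9 reached it in AML libraries alone. For these genes the group with the higher values decided that they were tested. The empirical Bayes step was robust and used a variance trend, and two-sided p-values were adjusted by Benjamini-Hochberg (threshold 0.05). On simulated data the fit missed most of the smaller changes, those of 1 log2 unit. The simulation changed only the more abundant genes and held no length trend, so it does not cover low genes. It also changed far fewer genes than were called in the real data, which makes the adjusted threshold harder to reach. Ratios were tested with SciPy 1.17.1. Groups follow the source labels, which give no batch. Gene models came from GENCODE M1 (mm9), with a transcript length for 96.3% of tested genes. St3gal6 overlaps Dcbld2 (at most 0.5 RPKM) on the other strand by 1603 bases. RefSeq held a start window for 6 of the 7 genes, not for Selplg.

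A gene of the selectin list is not reported here. The genes and lists were chosen with earlier results of these data known. From each list the text names up to 4 called genes with the largest change, or the most abundant tested gene where none was called. Other genes are named with their values where a count was small. Alternatives were 3 scalings (upper quartile, quantile, equal totals), no filter or one at 5 RPKM, 0.1 as pseudocount, a fit without the trend, rounding to 1 decimal and omission of each library. Removal of the length trend was added after seeing the data.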

Additional observations from a re-analysis of the deposited data

How the results depend on the processing

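The number of the 7 genes called lower stayed between 4 and 6, and 0 were called higher, under the 8 alternatives of scaling, filter, pseudocount, variance model and rounding and with the length trend removed (6). Leaving out one library gave 1 to 5 of the 7 lower: 4 without normal library 1, 3 without normal library 2, 5 without normal library 3, 3 without AML library 1 and 1 (St3gal6) without AML library 2. Over all tested genes those fits called from 674 to 4899 genes, beside 3155 with all libraries. Fits without an AML library leave 1, assumed to vary like the others. The log2 fold change of Fut4 ran from -0.50 to 0.19 in these fits and turned positive when normal library 1 (0.038) or AML library 2 (0.19) was left out. The cause was not tested. The difference in the St3gal4 to St3gal6 log2 ratio ranged from 1.48 to 2.97 without one library and was 1.69 with 1 added to each value. No paired analysis was possible because the labels give no number that pairs normal with AML libraries. Read numbers are inferred from a trial depth, which is uncertain for AML library 2.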
